A study of Mus musculus with 9 samples.

Results

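The genes described here are 40 markers of T cells and cytotoxic lymphocytes, chosen by name from 7 roles: the T cell receptor (TCR) complex, coreceptors and surface antigens, proximal TCR signalling, costimulation and checkpoints, regulatory T cell and cytokine receptor genes, cytotoxic effectors with killer receptors, and homing and residency. All 40 were among the 34637 genes with a value in the expression table, and all 40 passed the filter on low counts that left 20817 genes for testing. RNA-seq had been performed on back skin of male C57BL/6 mice aged 6 to 8 weeks, in which dermatitis was induced by 2,4-dinitrochlorobenzene (DNCB), a contact sensitizer. Every mouse in both groups was sensitized on day 1 with 200 µL of a 1% solution and challenged from day 4 to day 21 with 100 µL of a 0.5% solution. After day 7 the FJDHF group (n = 5) received the Fangji Dihuang formulation, a herbal decoction, daily by mouth (the medium of the doses tested per the study's text; the labels name no dose), the Model group (n = 4) received water, and skin was taken on day 28. DNCB applied to the skin of a wild-type inbred strain is an induced model of atopic dermatitis, and untreated skin was not analysed here. The question of the comparison was whether transcripts that mark T cells and killer lymphocytes differed in the lesions of treated and untreated mice.

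The expression columns carried the codes MXL and MR instead of mouse numbers. The 4 MXL columns were taken as Model and the 5 MR columns as FJDHF from the group sizes and initials, so each direction between groups rests on that reading, and no column could be tied to a single mouse. Libraries held between 74648669 and 79474215 counts. The skin markers were present in each library, with a summed level of 4 keratinocyte genes between 1057 and 5592 FPKM (fragments scaled by gene length and library size) and of 6 skeletal muscle genes between 204 and 5647 FPKM. Levels within a gene are given as CPM, counts scaled to library size, after TMM scaling. They are listed for MXL1, MXL12, MXL3_4 and MXL_3 in the Model group and for MR1, MR3, MR3_4, MR4_5 and MR5 in the FJDHF group, in that order. Comparisons between genes use FPKM, which is per length.

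Most T cells recognize presented peptides through a receptor made of an alpha and a beta chain. Gamma-delta T cells carry a gamma and a delta chain instead and mostly recognize other ligands. In both, the CD3 subunits and CD247 carry the receptor's signal: the kinase Lck phosphorylates them, and the kinase Zap70 binds the phosphorylated chains. Helper T cells carry CD4, cytotoxic T cells carry CD8, and killer lymphocytes, natural killer (NK) cells included, store perforin and granzymes in granules. Mouse epidermis also holds resident gamma-delta T cells, called dendritic epidermal T cells, and DNCB dermatitis is a contact reaction in which T cells are recruited to the skin.

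Sequences are shown where they bear on how the values can be read. The beta chain constant genes Trbc1 and Trbc2 are near copies: 23 of their 518 coding bases differed (identity 95.6%), the longest identical stretch ran over 259 bases, and the first exon of 375 bases held 1 difference. Their untranslated bases were not compared. Within the coding sequence only the end, positions 376 to 518 counted from the first coding base of the constant exon, separates them well, with 22 differing bases. Those 143 bases follow for GRCm38, plus strand, introns left out, from chr6:41539114-41539662 and chr6:41547610-41548178, with the differing bases in capitals.
Trbc1: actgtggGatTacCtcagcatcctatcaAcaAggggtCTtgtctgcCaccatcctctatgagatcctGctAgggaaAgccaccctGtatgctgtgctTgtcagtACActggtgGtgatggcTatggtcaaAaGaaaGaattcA
Trbc2: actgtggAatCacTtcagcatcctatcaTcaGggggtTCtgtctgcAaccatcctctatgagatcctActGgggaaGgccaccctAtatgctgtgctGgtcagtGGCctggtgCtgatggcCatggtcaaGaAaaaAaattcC

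Promoter windows of 250 bases before the RefSeq gene start (GRCm38.p6) were found for 26 of the 40 genes, in 31 windows. The letters TGTGGT, the core of a RUNX motif, stood on either strand in 38.7% of those windows and in 14.0% of all 32851 windows, and AGGAAG, an ETS core, in 61.3% and 29.5%. A gene can have several windows, and the 2 of Ncr1 overlap almost wholly; counted once a gene, TGTGGT was found for 11 of 26 genes (42.3%, against 15.9% of all 27025 genes) and AGGAAG for 17 (65.4%, against 32.3%). The GATA letters AGATAA (6.45% and 9.99%), the NFAT letters GGAAAA (16.1% and 20.4%) and the T-box letters GGTGTGA (3.23% and 3.33%) were about as common or less common than in all windows. RUNX and ETS factors are known regulators of T cell and killer cell genes, and a match of letters is a description of the window and not a bound site. The windows of the granule genes Prf1, Gzmb and Nkg7 and of Cd3e are printed as examples, with matches of both motifs in capitals. That of Gzmb holds no AGGAAG and that of Cd3e no TGTGGT on either strand. The windows of Cd8a, Eomes and Ifng, not printed, hold neither. ACCACA and CTTCCT are the same motifs on the opposite strand, and AGGAAG and GGAAAA share the letters GGAA but cannot match at the same core.
Prf1 (chr10:61297586-61297835, plus strand): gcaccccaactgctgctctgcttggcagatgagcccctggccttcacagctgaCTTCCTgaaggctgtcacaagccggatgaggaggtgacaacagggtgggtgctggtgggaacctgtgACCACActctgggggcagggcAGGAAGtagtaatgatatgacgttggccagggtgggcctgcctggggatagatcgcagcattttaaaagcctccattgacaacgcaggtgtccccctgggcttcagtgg
Gzmb (chr14:56262335-56262584, minus strand): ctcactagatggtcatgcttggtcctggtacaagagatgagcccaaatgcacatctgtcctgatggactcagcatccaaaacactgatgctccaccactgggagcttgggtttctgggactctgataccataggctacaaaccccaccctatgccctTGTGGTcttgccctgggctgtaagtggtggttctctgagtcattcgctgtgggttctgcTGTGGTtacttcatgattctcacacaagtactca
Nkg7 (chr7:43436888-43437137, plus strand): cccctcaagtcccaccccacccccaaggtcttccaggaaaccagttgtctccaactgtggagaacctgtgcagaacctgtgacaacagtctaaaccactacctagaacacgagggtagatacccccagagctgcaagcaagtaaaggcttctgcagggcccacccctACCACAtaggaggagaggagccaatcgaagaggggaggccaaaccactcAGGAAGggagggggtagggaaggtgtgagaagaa
Cd3e (chr9:45009612-45009861, minus strand): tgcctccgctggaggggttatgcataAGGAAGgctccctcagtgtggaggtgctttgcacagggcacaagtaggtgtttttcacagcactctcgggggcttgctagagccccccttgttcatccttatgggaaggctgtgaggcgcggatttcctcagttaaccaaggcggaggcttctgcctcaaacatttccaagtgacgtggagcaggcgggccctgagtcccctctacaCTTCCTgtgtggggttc

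No member passed the test of a difference between the groups. By edgeR's quasi-likelihood test 0 of the 40 had a Benjamini-Hochberg adjusted p under 0.05, where 0% of all genes tested did, and every adjusted p rounded to 1. DESeq2 and limma also called 0 members. At an unadjusted p under 0.05 edgeR again gave 0 members against 1.57% of all genes, DESeq2 gave 1 (Ctla4) against 1.89%, and limma gave 0 against 1.86%. The groups overlapped for each of the 40, while 0.514% of all genes did not overlap, and an exact two-sided permutation test over the libraries put 0 members under 0.05, against 1.93% of all genes (the smallest p it can give is 0.00794). In bulk skin, fewer cells of a type and less RNA per cell cannot be told apart.

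The direction was mixed. In FJDHF 23 members were higher and 17 lower by the sign of the log2 fold change (23 of 40, against 44.1% of all genes), and their median was 0.02 on the log2 scale against -0.03 over all genes tested. The members by role were at a median log2 fold change of 0.48 for coreceptors and surface antigens (6 of 7 higher), 0.38 for cytotoxic genes (7 of 9 higher), 0.10 for proximal signalling (2 of 3 higher), -0.02 for the regulatory and cytokine receptor genes (2 of 5 higher), -0.05 for the TCR complex (4 of 8 higher), -0.10 for costimulation and checkpoints (1 of 4 higher) and -0.36 for homing (1 of 4 higher). None of these signs passed a test in any member. They also depended on the measure: by the difference of mean log2(CPM + 0.5), Cd2, Gzmb, Ncr1, Cd3d, Cd3e and Foxp3 were lower in FJDHF. By that measure Zap70 and Il2rg were higher. MR1 was the highest library in 6 of 7 coreceptor and surface genes and in 6 of 9 cytotoxic genes. The median distance from estimate to 95% bound was 0.95 log2 units over the members, so changes of the sizes seen could not have been told from none in most genes. The median within-group SD was 0.51 log2 units for the members and 0.35 over all genes tested.

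**Figure D1:**
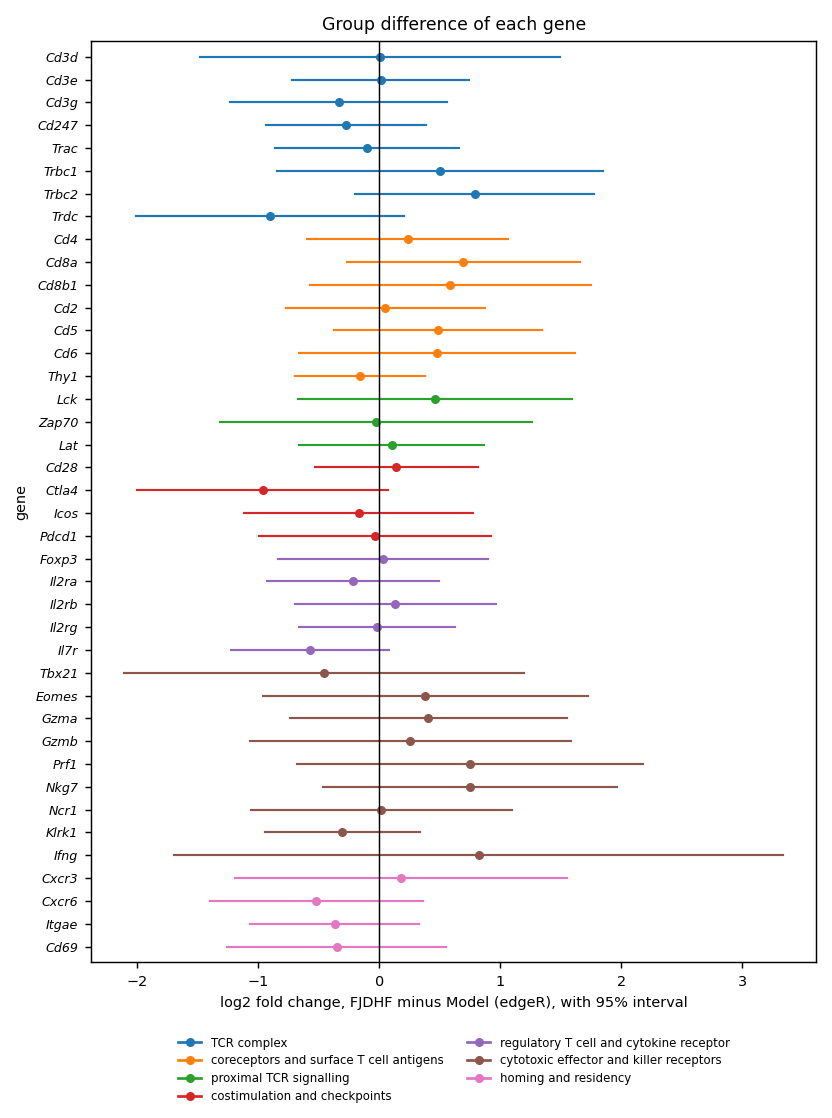
Fitted log2 fold change (FJDHF minus Model, x axis) of each of the 40 genes (y axis), with its 95% interval from edgeR, coloured by role; n = 4 Model and 5 FJDHF libraries. Each of the 40 intervals crosses 0, and the point estimates run from -0.96 (Ctla4) to 0.82 (Ifng).

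Among the CD3 subunits, which carry the receptor's signal, no difference passed the test. Cd3e was at 2.09, 2.24, 1.66 and 2.03 CPM in the Model libraries and at 3.01, 1.19, 2.69, 1.83 and 1.41 CPM in the FJDHF libraries, a log2 fold change of 0.01 ± 0.33 (SE). The FJDHF values of Cd3e, from MR3 at the bottom to MR1 at the top, enclosed all 4 Model values. Cd3d, the delta subunit, was at 1.3, 2.22, 0.968 and 0.969 CPM in Model and at 2.39, 0.137, 2.44, 1.21 and 0.701 CPM in FJDHF (log2 fold change 0.01 ± 0.67), with MR3 at 11 counts and 17.7 times below MR3_4. Its neighbour Cd3g, the gamma subunit, was at 6.18, 12.7, 8.04 and 4.61 CPM in Model and at 9.95, 2.81, 6.27, 4.43 and 7.77 CPM in FJDHF (log2 fold change -0.33 ± 0.40), highest in MXL12 and lowest in MR3. The starts of Cd3g and Cd3d lie 1355 bases apart on opposite strands of chromosome 9 (chr9:44969572-44980431 and chr9:44981786-44987339, GRCm38), yet the count of Cd3g over that of Cd3d ran from 2.57 in MR3_4 to 20.5 in MR3.

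Cd247, the zeta chain, was at 4.49, 4.28, 5.77 and 4.36 CPM in Model and at 5.07, 2.25, 4.81, 4.7 and 2.7 CPM in FJDHF, with a log2 fold change of -0.27 ± 0.30. MR3 and MR5 were the lowest 2 libraries and the other 7 lay between 4.28 and 5.77 CPM. Exons of Cd247 overlap Gm16565 on the same strand and Pou2f1 on the opposite strand, and Cd3e overlaps Gm48719 on the opposite strand; the libraries were made strand-specific, but whether the counting used the strand was not given in the sources used here, so shared reads cannot be set apart.

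The alpha chain constant gene Trac was at 2.76, 3.56, 2.17 and 3.18 CPM in Model and at 4.29, 1.34, 3.18, 2.22 and 2.57 CPM in FJDHF (log2 fold change -0.10 ± 0.34), highest in MR1 and lowest in MR3 as for Cd3e. The beta chain genes followed another order. Trbc2 was at 27.8, 9.65, 11.1 and 11 CPM in Model and at 40.8, 19.5, 31.2, 27.5 and 9.52 CPM in FJDHF, a log2 fold change of 0.79 ± 0.44 (edgeR unadjusted p = 0.105, exact permutation p = 0.19). Trbc1 was at 13.2, 2.53, 3.57 and 3.89 CPM in Model and at 13.6, 5.91, 13.3, 5.93 and 2.29 CPM in FJDHF (log2 fold change 0.50 ± 0.61). In both genes 1 Model library, MXL1, stood with the higher FJDHF libraries, and 1 FJDHF library, MR5, stood with the lower Model libraries. Without MXL1 the log2 fold change was 1.28 for Trbc2 and 1.30 for Trbc1, at unadjusted edgeR p of 0.0117 and 0.0408, and the adjusted p were 0.983; in that fit 5 of 40 members and 3.45% of all genes had an unadjusted p under 0.05.

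Per length, Trbc2 was 3.67 (MXL12) to 19.9 (MR3) times as high as Trac, with which it pairs in 1 receptor. The beta joining segments showed a like order: 14 Trbj segments summed to 3.14, 0.675, 1.10 and 1.31 CPM in Model and to 3.39, 1.99, 2.67, 2.38 and 0.943 CPM in FJDHF. The 22 beta variable segments did not: they summed to 2.39, 2.41, 2.23 and 2.27 CPM in Model and to 3.92, 0.775, 1.53, 2.04 and 2.42 CPM in FJDHF. For the 79 alpha variable segments the sums were 1.00, 1.10, 1.01 and 0.761 CPM in Model and 1.89, 0.325, 1.07, 1.16 and 0.867 CPM in FJDHF. So in MR3 the variable segments of both chains were at their lowest, while Trbc2 and the joining segments were in mid-range. Since the constant genes are near copies, how reads were split between Trbc1 and Trbc2 is uncertain; the FPKM of Trbc1 over that of Trbc2 ran from 0.199 to 0.437.

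**Figure D2:**
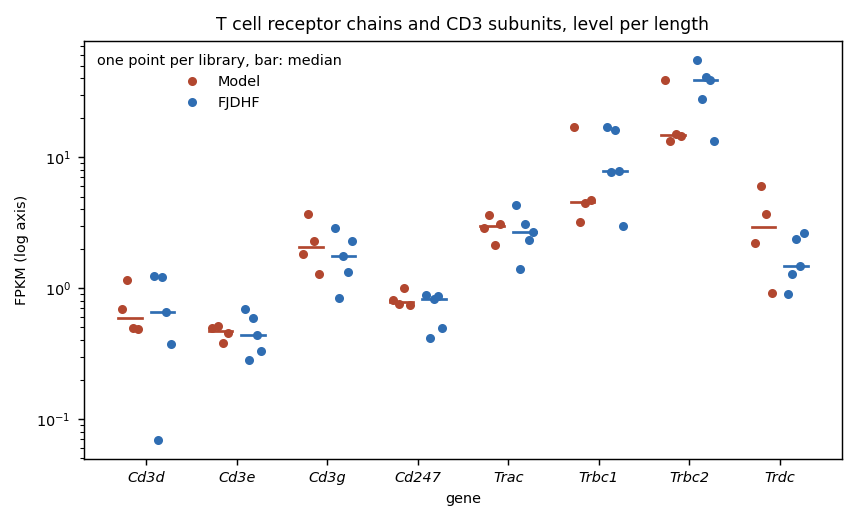
FPKM (log axis) of the 8 TCR complex genes (x axis) in each library, 1 point per library, Model in red and FJDHF in blue, with a bar at the group median. Median levels over the 9 libraries run from 0.450 for Cd3e to 27.7 for Trbc2, and the groups overlap in each gene.

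The delta chain constant gene Trdc marks gamma-delta T cells and had another order of libraries again. It was at 8.81, 24.4, 15.3 and 3.9 CPM in Model and at 3.71, 5.02, 10.1, 5.74 and 10.5 CPM in FJDHF, 13.1 ± 8.87 CPM (SD, n = 4) in Model and 7.02 ± 3.09 CPM (SD, n = 5) in FJDHF, a log2 fold change of -0.90 ± 0.50 (edgeR unadjusted p = 0.101), which was -0.41 without MXL12. MXL12 and MXL3_4 were highest, and MR1, the library highest in Trac and Cd3e, was lowest. The gamma chain constant gene Trgc1 was at 5.2, 14.5, 7.86 and 2.16 CPM in Model and at 3.13, 2.92, 5.65, 3.92 and 6.72 CPM in FJDHF (log2 fold change -0.73 ± 0.49), again highest in MXL12 and MXL3_4, with MXL_3, MR3 and MR1 lowest. Trgv6, the variable segment of a dermal gamma-delta population, was at 0.848, 2.01, 2.79 and 0.111 CPM in Model and at 0.0266, 0.537, 0.689, 0.416 and 1.63 CPM in FJDHF, lowest in MR1 and MXL_3. Those 2 values rest on 2 and 8 counts, and the MR1 value lies under the detection limit of 3 counts. Trdv4, a delta variable segment that dendritic epidermal T cells use, was at 2.78, 5.64, 4.15 and 2.1 CPM in Model and at 0.571, 1.49, 2.34, 0.68 and 2.57 CPM in FJDHF. Which gamma-delta T cells the Trdv4 reads came from was not tested. The gamma variable segment Trgv5 was low, at 2 counts in MXL_3 to 39 counts in MXL12.

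Of the list of 11 tested gamma-delta and dendritic epidermal T cell genes 8 were lower in FJDHF, at a median log2 fold change of -0.51. Trdv4 had an unadjusted edgeR p of 0.0301 (log2 fold change -1.26 ± 0.50, exact permutation p = 0.0635, adjusted p = 1 after rounding), and the other 10 had none under 0.05 (1.57% of all genes did). Without MXL12 the median of the list was -0.18, and Trdv4 was at -0.98 with an unadjusted edgeR p of 0.0956. Exons of Trdc overlap Gm43434 and Trdv5 on the opposite strand. Trdc over Trac within a library ran from 0.209 in MR1 to 1.72 by FPKM, with the groups overlapping (exact permutation p = 0.476 for the log2 ratio).

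Coreceptors sort T cells into helper and cytotoxic classes. Cd4 was at 5.73, 5.37, 4.15 and 13.6 CPM in Model and at 12.7, 6.89, 6.77, 6.9 and 9.32 CPM in FJDHF (log2 fold change 0.24 ± 0.37), highest in a library of each group, MXL_3 and MR1. Cd8a was at 1.81, 1.34, 1.59 and 1.91 CPM in Model and at 4.62, 0.912, 2.14, 3.75 and 2.04 CPM in FJDHF, 1.66 ± 0.254 CPM (SD, n = 4) in Model and 2.69 ± 1.48 CPM (SD, n = 5) in FJDHF. The 4 Model libraries lay within 1.34 to 1.91 CPM, 4 FJDHF libraries lay above that range and MR3 below it (log2 fold change 0.70 ± 0.43, edgeR unadjusted p = 0.137, exact permutation p = 0.286). Cd8b1, the beta chain of the same coreceptor, was at 1.16, 1.28, 1.38 and 0.941 CPM in Model and at 3.75, 0.375, 1.85, 1.41 and 1.59 CPM in FJDHF (log2 fold change 0.59 ± 0.52). Each FJDHF library but MR3 was above the highest Model library in Cd8b1 too.

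Without MR3 the log2 fold change of Cd8a was 0.90 (edgeR unadjusted p = 0.0283, adjusted p = 1 after rounding), and Cd8a and Cd8b1 were the 2 members whose groups then did not overlap, against 1.2% of all genes. Each library was left out in turn, and this value is given because 1 library decides the overlap. Cd8a relative to Cd4 did not pass the test either (FPKM ratio 0.147 to 0.603, exact permutation p = 0.778).

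The remaining surface antigens are pan-T-cell molecules. Cd5 and Cd6, paired regulators of TCR signalling, were at a log2 fold change of 0.49 ± 0.39 and 0.48 ± 0.51, with Cd5 between 1.51 and 4.54 CPM and Cd6 between 0.370 and 1.65 CPM. Cd2, an adhesion molecule, ranged from 1.81 CPM (MR3) to 4.97 CPM (MR1) at a log2 fold change of 0.05 ± 0.37. Thy1 had the highest median of the 40 genes per length (40.4 FPKM) and ranged from 74.8 to 165 CPM (log2 fold change -0.16 ± 0.24). Thy1 is also made by dermal fibroblasts, whose 5 marker genes summed to 2240 to 3557 FPKM in Model and to 1521 to 2742 FPKM in FJDHF; their part in the Thy1 level was not tested.

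The kinases and the adaptor next to the receptor did not pass the test. Lck, which phosphorylates CD3, ranged from 1.39 CPM (MR5) to 7.78 CPM (MR1), with a log2 fold change of 0.46 ± 0.51. Zap70, which binds the phosphorylated chains, ranged from 0.252 CPM (MXL12) to 1.66 CPM (MXL1), both in the Model group, with a log2 fold change of -0.03 ± 0.58. Zap70 is the GC-richest member (59.6%). From the GC-poorest to the GC-richest genes, the median of all genes tested changed by -0.84 log2 units in MXL12 and 0.90 in MXL1. The part of that trend in the range of Zap70 was not tested. Lat, the adaptor that Zap70 phosphorylates, ranged from 1.49 CPM (MR3) to 4.36 CPM (MR1), with a log2 fold change of 0.10 ± 0.34.

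Ctla4, an inhibitory receptor of activated and regulatory T cells, had the smallest p of the 40 genes. It was at 0.544, 2.79, 0.981 and 1.95 CPM in Model and at 0.81, 0.525, 0.703, 1.11 and 0.867 CPM in FJDHF, 1.57 ± 1.01 CPM (SD, n = 4) in Model and 0.803 ± 0.215 CPM (SD, n = 5) in FJDHF, a log2 fold change of -0.96 ± 0.47 (edgeR unadjusted p = 0.0646, exact permutation p = 0.183). The 2 highest libraries were Model (MXL12 and MXL_3), but the other 2 Model libraries lay within the FJDHF range. Without MXL12 its log2 fold change was -0.53. By DESeq2 its unadjusted p was 0.0432, and without MXL1 edgeR gave 0.0122, with adjusted p of 1 after rounding and 0.983. Icos, the inducible costimulator, was at 3.24, 6.7, 5.12 and 4.29 CPM in Model and at 6.8, 1.4, 4.34, 3.07 and 5.89 CPM in FJDHF (log2 fold change -0.17 ± 0.43), highest in MR1 and lowest in MR3. Cd28, the main costimulatory receptor, ranged from 2.35 to 5.15 CPM (log2 fold change 0.14 ± 0.30), and Pdcd1, which encodes the checkpoint PD-1, from 0.548 to 1.68 CPM (log2 fold change -0.04 ± 0.43).

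Foxp3, the lineage factor of regulatory T cells, did not follow Ctla4. It was at 1.25, 2.36, 1.51 and 1.61 CPM in Model and at 2.31, 0.637, 1.69, 1.66 and 2.28 CPM in FJDHF (log2 fold change 0.03 ± 0.39), with MR3 below all the others. Exons of Foxp3 overlap Flicr on the same strand and Ccdc22, Gm36995 and Ppp1r3f on the opposite strand. Il2ra, the high-affinity chain of the interleukin-2 receptor, was at 3.77, 6.78, 4 and 7.39 CPM in Model and at 6.27, 3.6, 5.4, 2.94 and 5.4 CPM in FJDHF (log2 fold change -0.22 ± 0.32). The signalling chains Il2rb and Il2rg ranged from 0.603 to 2.20 FPKM and from 6.68 to 15.8 FPKM, at log2 fold changes of 0.13 ± 0.38 and -0.02 ± 0.29. Il7r, the receptor that sustains resting and memory T cells, had the second smallest p. It was at 12.2, 23.4, 13.1 and 19.3 CPM in Model and at 13.5, 6.66, 12.8, 9.08 and 15.3 CPM in FJDHF, a log2 fold change of -0.57 ± 0.29 (edgeR unadjusted p = 0.0809, exact permutation p = 0.135). MXL12 and MXL_3 were the 2 highest libraries, MR3 and MR4_5 the 2 lowest, and the other 5 of both groups were interleaved.

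Several cytotoxic genes were uneven within the FJDHF group. Prf1, which encodes perforin, was at 0.835, 0.424, 0.49 and 0.636 CPM in Model and at 2.48, 0.262, 1.17, 0.794 and 0.306 CPM in FJDHF (log2 fold change 0.75 ± 0.64, 95% interval -0.68 to 2.18). Gzmb, the protease granzyme B, was at 2.42, 3.18, 2.31 and 1.61 CPM in Model and at 5.8, 0.337, 2.45, 3.4 and 2.22 CPM in FJDHF (log2 fold change 0.26 ± 0.60), 17.2 times higher in MR1 than in MR3. Gzma, granzyme A, was at 1.8, 0.847, 1.78 and 0.595 CPM in Model and at 2.66, 0.65, 2.69, 0.995 and 1.34 CPM in FJDHF (log2 fold change 0.41 ± 0.52). In Prf1, Gzmb and Gzma the FJDHF group held both the library or libraries above all Model values and one near or below the lowest of them.

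Nkg7, a granule membrane protein, ranged from 0.676 CPM (MR5) to 4.46 CPM (MR1) at a log2 fold change of 0.75 ± 0.55. Ncr1, the NKp46 receptor that marks NK cells, was at 0.81, 0.847, 0.658 and 1.18 CPM in Model and at 1.87, 0.612, 0.868, 0.756 and 0.306 CPM in FJDHF (log2 fold change 0.02 ± 0.49). Klrk1, the activating receptor NKG2D, ranged from 4.19 to 11.1 CPM at a log2 fold change of -0.30 ± 0.29, and differed from the granule genes in being highest in MXL12. The T-box factors that direct killer programmes were low, Tbx21 at 8 to 65 counts (log2 fold change -0.46 ± 0.74) and Eomes at 0.229 to 2.07 CPM (log2 fold change 0.38 ± 0.61).

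Ifng, the type 1 cytokine, was near the limit of detection. It was at 0.0886, 0, 0.0516 and 0.263 CPM in Model and at 0.385, 0, 0.193, 0.164 and 0.153 CPM in FJDHF, with 29 counts in the highest library and 0 counts in MXL12 and MR3, where 3 counts would have been 0.0395 and 0.0388 CPM. Its log2 fold change of 0.82 ± 1.13 had a 95% interval of -1.70 to 3.34, so no group difference was detectable at this depth. Intervals and limits of this kind cover counting error and the spread between libraries only.

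Of the 4 homing and residency genes 3 had a negative sign and 0 passed the test. Cxcr6, a chemokine receptor of skin-resident T cells, was at 12.5, 21.4, 15.8 and 7.64 CPM in Model and at 13, 4.57, 10.8, 6.34 and 15.2 CPM in FJDHF (log2 fold change -0.52 ± 0.40, edgeR unadjusted p = 0.218). Itgae, the integrin CD103 that binds epithelial cadherin, was at 10.1, 7.1, 8.03 and 6.41 CPM in Model and at 9.95, 3.82, 7.25, 4.13 and 5.48 CPM in FJDHF (log2 fold change -0.37 ± 0.32). In both genes MR3 and MR4_5 were lowest and MR1 was within the Model range. Cxcr3, the receptor of type 1 effector cells, was at 2.14, 0.953, 0.671 and 2.5 CPM in Model and at 2.31, 2.37, 2.26, 1.71 and 0.229 CPM in FJDHF (log2 fold change 0.18 ± 0.62), with MR5 apart at 18 counts. Cd69, an early activation and residency marker, ranged from 0.787 CPM (MR3) to 3.60 CPM (MXL12) at a log2 fold change of -0.35 ± 0.41.

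Ratios within a library do not depend on its depth or, where both genes come from the same cells, on how many such cells it held. Of the 7 ratios compared 0 passed the test: the exact permutation p ran from 0.381 (Trbc1 over Trbc2) to 0.921 (Foxp3 over Cd3e), and the Benjamini-Hochberg adjusted p was 0.921 for each. The log2 ratio of Cd3e to Ptprc, the pan-leukocyte gene CD45, was -3.30 ± 0.62 (SD, n = 4) in Model and -3.23 ± 0.31 (SD, n = 5) in FJDHF. Foxp3 over Cd3e was -0.35 ± 0.27 (SD, n = 4) and -0.32 ± 0.46 (SD, n = 5), and Gzmb over Gzma was 0.48 ± 0.70 (SD, n = 4) and 0.05 ± 0.93 (SD, n = 5). Cd8b1 over Cd8a was 0.70 ± 0.37 (SD, n = 4) and 0.53 ± 0.53 (SD, n = 5).

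**Figure D3:**
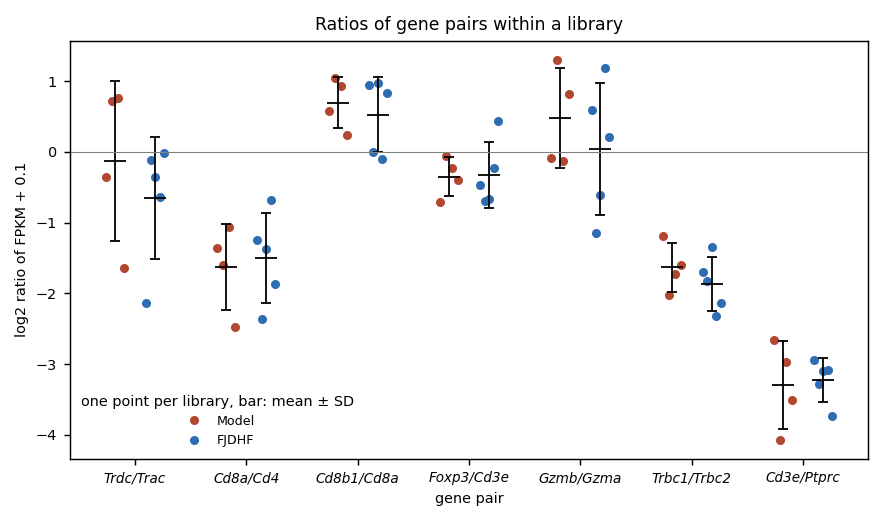
Log2 ratio of FPKM + 0.1 (y axis) for 7 gene pairs (x axis) in each library, 1 point per library, Model in red and FJDHF in blue, with the mean and SD of each group as a black bar. The groups overlap for each pair, and the means differ by at most 0.52 log2 units (Trdc over Trac).

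The median within-group SD of the members was 0.51 log2 units, and the median size of their log2 fold change was 0.32. MR1 was the highest of the 9 libraries in 21 members (52.5%) and in 7.05% of all genes tested. MR3 was the lowest in 22 members (55.0%, Ifng included, where MXL12 was at 0 as well) and in 11.7% of all genes. By role MR1 was highest in 6 of 7 coreceptor and surface genes and 6 of 9 cytotoxic genes, and in 0 of 4 homing genes. MR3 was lowest in 5 of 8 TCR complex genes, 5 of 9 cytotoxic genes and 3 of 4 homing genes. The median deviation of the members from their mean over libraries was 0.59 log2 units in MR1 and -0.56 in MR3. Without MR1 the median log2 fold change of the members was -0.19, and without MR3 it was 0.16, so its sign changed with single libraries.

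Markers of other cells in those libraries are given beside this, and their part in it was not tested. The 6 B cell and plasma cell markers summed to 4.64 FPKM in MR3, the lowest library, 15.7 FPKM in MR1 and 29.4 FPKM in MXL_3, the highest (6.85 to 29.4 FPKM in Model, 4.64 to 16.4 FPKM in FJDHF). The 5 lymph node markers summed to most in MR1 (136 FPKM) and to least in MR5 (24.1 FPKM), with 78.8 FPKM in MR3. A single gene of these reached up to 97.3 FPKM, so the sum need not hold for each gene. Glycam1 was at 13 counts in MR1, 14 in MR3 and 40 in MXL12, its highest. In that list Ccl19, a chemokine of lymph node stroma, was at 0 counts in MR1, MR3 and MR4_5 and at 2 to 66 counts in the other libraries, and no gene of any marker list was at 0 in every library. The 8 macrophage markers summed to 398 FPKM in MR1, the highest library, but to 333 FPKM in MR3, above 5 of the other libraries. In skeletal muscle markers MR3 was second only to MXL_3, at 3916 and 5647 FPKM, while MR1 was at 1143 FPKM. Ptprc was at 117 CPM in MR1 and 67.5 CPM in MR3, the lowest, and was highest in MXL12 (196 CPM), where neutrophil markers also peaked (652 FPKM, against 20.3 to 196 FPKM elsewhere). Of that sum S100a9 made up 464 FPKM. In Ly6g and Mmp8 MXL12 was highest too, but MXL_3 was close to it (79 and 59 counts, 10.3 and 9.64 CPM).

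**Figure D4:**
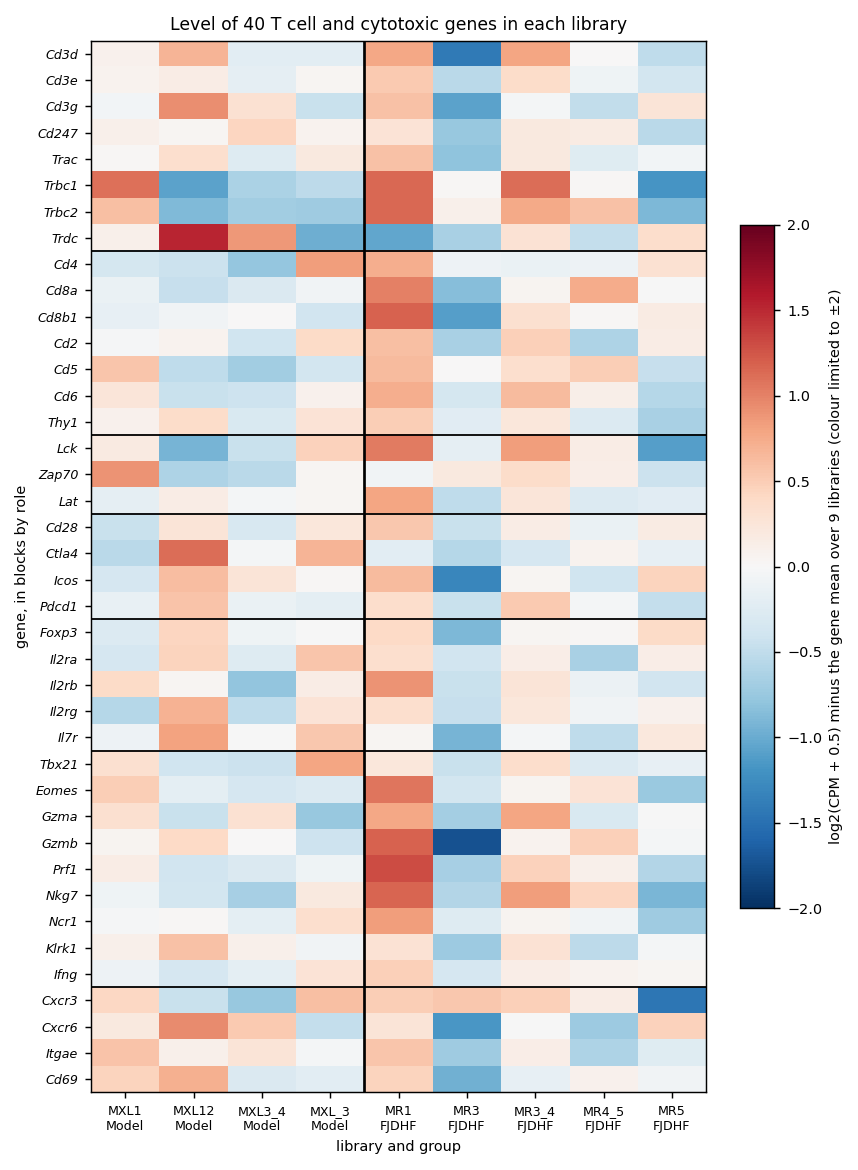
Deviation of log2(CPM + 0.5) from the gene's mean over 9 libraries (colour, limited to ±2) for the 40 genes (rows, in 7 blocks by role) in 4 Model and 5 FJDHF libraries (columns). MR1 is mostly red and MR3 mostly blue, while Trdc runs the other way in MR1 and is darkest in MXL12.

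Another difference between libraries followed GC content. From the GC-poorest genes (under 41.1% GC) to the GC-richest (over 57.3%), the median deviation of all genes tested changed by 0.90 log2 units in MXL1, 0.72 in MR3, -0.85 in MR5, -0.84 in MXL12 and -0.44 in MXL3_4. In the other 4 libraries it moved by at most 0.22. Both kinds occurred in both groups. The members ran from 32.7% GC (Klrk1) to 59.6% (Zap70), with 20 above and 20 at or below the median of all genes (49.2%). MR5 was lowest in 10 members, of which 8 were above that median GC content, and MXL12 was highest in 10, of which 8 were at or below it. The median log2 fold change was 0.16 over the 20 GC-rich and -0.14 over the 20 GC-poor members.

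The MR1 and MR3 deviations were about as large with that trend subtracted: the members' median deviation was 0.58 in MR1 and -0.59 in MR3. With the trend subtracted 0 members had an adjusted p under 0.05 and 1 an unadjusted p under 0.05 (Il7r, edgeR unadjusted p = 0.0447), against 1.95% of all genes.

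**Figure D5:**
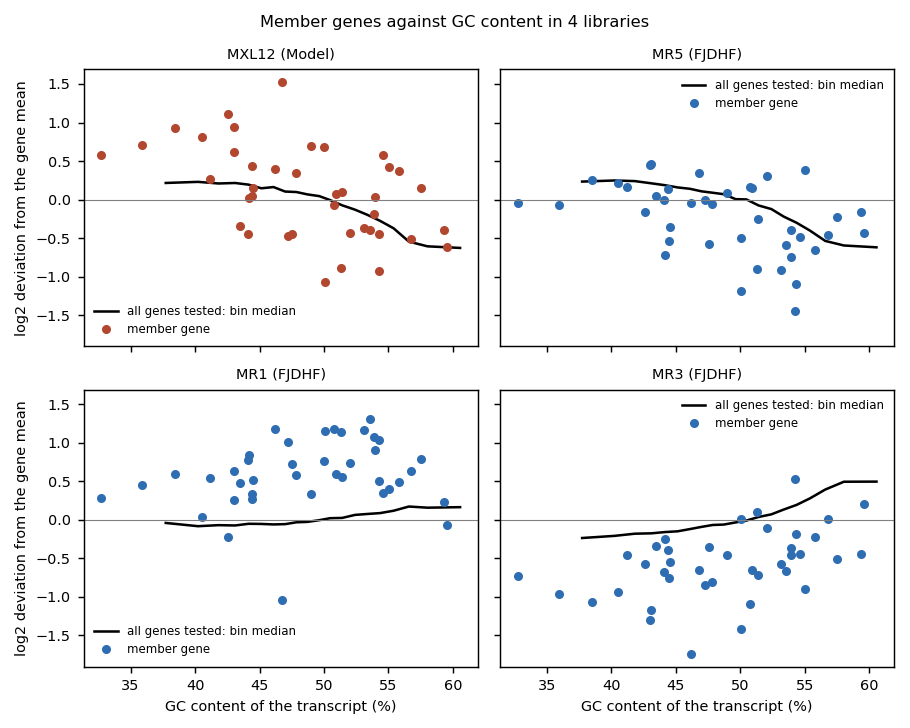
Deviation of each member's log2(CPM + 0.5) from its mean over 9 libraries (y axis) against the GC content of its transcript in percent (x axis) in MXL12, MR5, MR1 and MR3, with the median over all genes tested in 20 bins as a black line. The line falls in MXL12 and MR5, where the members' median deviation with the GC trend subtracted was 0.19 and -0.14. Members lie mostly above the line in MR1 (median deviation 0.59) and mostly below it in MR3 (-0.56).

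Other genes of the same pathways also gave no adjusted p under 0.05 by edgeR. Of 20 further TCR signalling genes 10 were higher and 10 lower, and 1 had an unadjusted p under 0.05 (against 1.57% of all genes): Trat1, a TCR-interacting adaptor, at 0.683, 1.95, 0.645 and 0.747 CPM in Model and 0.637, 0.175, 0.469, 0.202 and 0.65 CPM in FJDHF (log2 fold change -1.23 ± 0.54, edgeR unadjusted p = 0.0442). Without MXL12 it was -0.70 (edgeR unadjusted p = 0.222). Of 13 further costimulation and checkpoint genes 11 were lower in FJDHF, with 0 under 0.05 and the smallest p at Tnfrsf9, a costimulatory receptor. It was at 1.13, 5.8, 1.19 and 2.74 CPM in Model and at 1.54, 1.07, 1.38, 0.768 and 2.38 CPM in FJDHF (log2 fold change -0.92 ± 0.53, edgeR unadjusted p = 0.11), highest in MXL12. Without that library its log2 fold change was -0.24, and 8 of the 13 genes were higher and 5 lower. Of 18 tested NK and cytotoxic genes 12 were higher and 0 passed; Gzmk, granzyme K, had the smallest p (log2 fold change 2.09 ± 1.05, edgeR unadjusted p = 0.0744), with 0 counts in MXL12 and 142 counts in MR1; it was 1.35 without MR1 and 2.69 without MXL_3. Without MR1 8 of the 18 were higher, and without MR3_4 6 were.

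Helper T cell genes gave 1 of 18 tested at an unadjusted p under 0.05, against 1.57% of all genes. Ccr6, a chemokine receptor of interleukin-17-producing cells, was at 1.61, 2.37, 1.91 and 2.03 CPM in Model and at 1.91, 0.512, 0.496, 0.794 and 1.24 CPM in FJDHF (log2 fold change -1.0 ± 0.43, edgeR unadjusted p = 0.041, exact permutation p = 0.0397), with MR1 inside the Model range. With single libraries left out its unadjusted edgeR p ran from 0.00591 (without MR1) to 0.0897 (without MXL12). The lineage factor Gata3, also expressed by skin epithelium, was at a log2 fold change of 0.09 ± 0.40, and Il4 at 0.02 ± 0.43. Il17a, the main cytokine of Th17 cells, did not pass the filter on low counts, with at most 24 counts and 0 CPM in 2 Model and 2 FJDHF libraries; Il5, Il13, Il21 and Il22 did not pass either. These cytokines were therefore not tested.

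Among ligands of the members' receptors 4 of 13 were higher and 9 lower in FJDHF, with 0 at an unadjusted p under 0.05 by edgeR, and without MXL12 8 were higher and 5 lower. The smallest p was that of H60c, an epidermal ligand of NKG2D, at 51.9, 30.6, 37.1 and 21.6 CPM in Model and 65.6, 28.7, 42.7, 65.2 and 93.1 CPM in FJDHF (log2 fold change 0.74 ± 0.35, edgeR unadjusted p = 0.06). Il7, the ligand of Il7r, was at 6.54, 6.35, 6.41 and 4.99 CPM in Model and at 4.7, 2.85, 4.15, 4.84 and 5.49 CPM in FJDHF (log2 fold change -0.46 ± 0.24, edgeR unadjusted p = 0.0841, exact permutation p = 0.0397). Cxcl16, the ligand of Cxcr6, was at a log2 fold change of 0.18 ± 0.25, and Cxcl9, a ligand of Cxcr3, at 0.18 ± 0.46.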

How the data were processed

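Total RNA from back skin (TRIzol) had been made into strand-specific libraries and sequenced as paired ends on an Illumina NovaSeq. The deposited raw counts per gene (55401 genes) and the deposited FPKM values (34637 genes) were made by the authors; the submitters' processing notes name HISAT, StringTie, DESeq2 and mm10. The copy of the counts held in 9 columns of the FPKM table was identical and was not used. Versions and the counting strand were not given in the sources used here. The labels number the samples by mouse and give no batch. Within a group some column codes share a number, such as MR3 and MR3_4 or MXL_3 and MXL3_4, and the sources used here do not explain the codes. The p-values measure the spread between these 9 libraries and take each as a separate mouse, as the labels number them.

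Counts were tested with edgeR 4.0.16 (R 4.3.3; TMM, filterByExpr, quasi-likelihood test without covariates, two-sided, Benjamini-Hochberg over 20817 genes), after a test on simulated data. Single genes were also tested by exact permutation on log2(CPM + 0.5), and 7 FPKM ratios on log2 with 0.1 added. Alternatives used DESeq2 1.42.0, limma 3.58.1 on log2(FPKM + 1), other filters and scaling, each library left out, and a replicate block; a GC correction (GENCODE M21 transcripts), the fits without 2 libraries and the fits leaving out each library for genes that are no members were added after seeing the data. The members and lists were chosen with earlier results of these data known. All 40 members are accounted for. Of them 23 named ones are given in every library; Il7r was added after its values were seen. Of other lists, genes with an unadjusted p under 0.05, non-overlapping groups or otherwise the smallest p were named. The depth of 74648669 to 79474215 counts sets a detection limit of 3 counts at about 0.04 CPM. RefSeq (GRCm38.p6) promoters matched 26 members. Protein sequences were not used here.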

Additional observations from a re-analysis of the deposited data

Results flagged for a closer look

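In 94 comparisons of a gene or ratio within a group, 5 had a highest or lowest library whose gap to its neighbour took up more of the group's range than 95% of same-sized normal samples would show. Chance alone gives about 1 in 20, or 4.7 here. In the Model group they were Cd247, highest in MXL3_4 (gap 0.837 of the range), Trbc2, highest in MXL1 (0.871), and Pdcd1, highest in MXL12 (0.909). In the FJDHF group they were Foxp3, lowest in MR3 (0.710), and Cxcr3, lowest in MR5 (0.809). The gaps were measured on log2(CPM + 0.5). Trbc2 without MXL1 had a log2 fold change of 1.28 against 0.79 with it.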

How the results depend on the processing

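The count of members with an adjusted p under 0.05 was 0 in all 18 alternatives run, and over all genes it was 0 too except by DESeq2 (12 genes). The count at an unadjusted p under 0.05 was 0 in the reported fit and 1 under the replicate block, by DESeq2's Wald test and with the GC trend subtracted; leaving out 1 library gave 0 to 5, with 5 without MXL1 (Trbc1, Trbc2, Cd5, Ctla4 and Il7r), 2 without MR5 (Trbc2 and Il7r), 2 without MXL_3 (Cd4 and Trdc) and 1 each without MR3 (Cd8a) and MXL3_4 (Ctla4); over all genes the share under 0.05 in these fits was 3.45%, 1.90%, 2.27%, 1.51% and 1.51%, in that order, against 1.57% with all libraries. Members whose groups did not overlap numbered 0 to 2 when 1 library was left out, with 2 without MR3 and 1 without MXL_3. Over all genes the share not overlapping was 1.2% without MR3 and 1.71% without MXL_3, against 0.514% with all libraries. The median log2 fold change of the members lay between -0.19 (without MR1) and 0.16 (without MR3) when 1 library was left out, and was 0.31 in the 6 libraries that share column codes and 0.24 without MXL12 and MR5. In the 3 ratios that changed sign the lowest and highest differences were -0.16 (without MXL_3) and 0.34 for Cd8a over Cd4, -0.16 (without MR5) and 0.12 for Foxp3 over Cd3e, and -0.18 (without MXL12) and 0.29 for Cd3e over Ptprc. Over the 18 alternatives 20 members kept the sign of their log2 fold change and 20 changed it, all without passing the test in the reported fit; the causes were not tested. The shared codes 1, 3 and 3_4 did not pair the libraries (correlations of deviations 0.22, 0.12 and -0.22, 1 of 3 libraries closest to its own code). The replicate block gave 1 member (Trbc2) at an unadjusted p under 0.05, against 0 without the block in the same 6 libraries, and changed no other call. Over all genes the share under 0.05 was 1.24% with the block and 1.42% without it. With at least 10 counts asked in every library 38 members were tested. The low counts of Ifng, Tbx21 and the helper cytokines limit what could be seen in them.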

Other observations

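Markers of other skin cells gave some of the smallest p-values among the listed genes, all with an adjusted p of 1 after rounding by edgeR. Of all genes tested 1.57% had an unadjusted edgeR p under 0.05 and 1.93% an exact permutation p under 0.05. The groups did not overlap for 0.514% of all genes tested. Krt1 and Krt10, keratins of the differentiated epidermis, had a positive sign: Krt1 was at 1711 ± 799.9 CPM (SD, n = 4) in Model and 4787 ± 2280.4 CPM (SD, n = 5) in FJDHF (log2 fold change 1.48 ± 0.41, edgeR unadjusted p = 0.00446), and Krt10 had a log2 fold change of 1.23 ± 0.39 (edgeR unadjusted p = 0.00996). Without MXL1 Krt10 was at 1.81. All 4 keratinocyte markers had a positive sign, and 2 of 4 did without MXL12, MXL_3 or MR4_5. Mmp8, a neutrophil collagenase, was at 5.9, 10.3, 4.93 and 9.64 CPM in Model and at 4.36, 2.66, 1.94, 3.96 and 4.13 CPM in FJDHF, and the groups did not overlap (log2 fold change -1.18 ± 0.33, edgeR unadjusted p = 0.00496, exact permutation p = 0.00794, the smallest it can give). The 7 neutrophil markers were all of negative sign, at a median log2 fold change of -1.15. Of them 1 (Mmp8) had an unadjusted edgeR p under 0.05, against 1.57% of all genes. That median rests on MXL12: without it the median was 0.59, with 4 of 7 of positive sign. S100a9 was at 5.61, 256, 9.24 and 27.1 CPM in Model and at 54.7, 8.55, 20.6, 73.7 and 10.1 CPM in FJDHF (exact permutation p = 0.937). Mmp8 without MXL12 was at a log2 fold change of -1.0 (edgeR unadjusted p = 0.0172).

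Ccr7, the receptor by which dendritic cells and naive T cells reach lymph nodes, was at 0.823, 1.13, 0.529 and 1.15 CPM in Model and at 0.212, 0.225, 0.207, 0.34 and 0.561 CPM in FJDHF (log2 fold change -1.55 ± 0.44, edgeR unadjusted p = 0.00532, exact permutation p = 0.0238); 7 of 8 dendritic and Langerhans cell markers were of negative sign. Of those 8 markers 1 (Ccr7) had an unadjusted edgeR p under 0.05, against 1.57% of all genes. No gene of the other marker lists had an unadjusted edgeR p under 0.05. The smallest were Col1a2 among fibroblast markers (log2 fold change -0.54 ± 0.25, edgeR unadjusted p = 0.0575), Cxcl13 among lymph node markers (0.87 ± 0.49, edgeR unadjusted p = 0.108), Cd68 among macrophage markers (0.49 ± 0.45, edgeR unadjusted p = 0.303), Ms4a1 among B cell markers (0.47 ± 0.51, edgeR unadjusted p = 0.373), Kit among mast cell markers (-0.18 ± 0.22, edgeR unadjusted p = 0.433) and Mylpf among muscle markers (-0.45 ± 0.81, edgeR unadjusted p = 0.592). Without MXL12 Cxcl13 was at 1.48 (edgeR unadjusted p = 0.00762), and without MXL_3 Mylpf was at 1.17.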
